A study of Mus musculus with 94 samples.

Results

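Messenger RNA levels of 10 core spliceosome genes were followed through single haematopoietic stem cells labelled Ski-KO or Ski-WT. The genes were taken by name from a table of 13244 genes, and all 10 were present. They were Prpf31 and Prpf8 of the tri-snRNP, Sf3b1, Sf3b2, Sf3a1 and Sf3a3 of the U2 particle, U2af1, U2af2 and Zrsr2 of 3' splice site recognition, and Prpf40b of the U1 particle. The set was built around Prpf31, which was selected on its measured difference between Ski-KO and Ski-WT cells in this same table, so that difference is a description and supports nothing by itself. The question was whether the low Prpf31 level was shared by the genes of its particle.

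The study was designed around early myelodysplastic syndrome, and Ski encodes a transcriptional co-repressor that acts on Smad proteins. All 94 cells were C57BL/6 mouse stem cells that originated in the fetal liver, were carried in transplanted mice for 6 months and were sorted from bone marrow. The sort kept cells without lineage markers or Cd48 that carried Cd45.2, Cd150, Sca-1 and c-Kit. The Ski-KO group held 46 cells under 2 label prefixes, 051716 (27 cells) and 051816 (19 cells), and the Ski-WT group held 48 cells under the prefix 061016. The labels do not say what a prefix stands for, how Ski was inactivated, how old the mice were or how many mice gave cells. Since each prefix belonged to a single genotype, a genotype difference and a prefix difference cannot be told apart. With no animal named, each genotype counted as 1 sample and no test between genotypes was possible. Values are log2(TPM + 1), where TPM is transcript abundance corrected for gene length and scaled to the same total in each cell, and a difference is Ski-KO minus Ski-WT in the mean of that value over cells. A cell was counted as holding a gene at 5 TPM or more. Shares of cells carry exact 95% Clopper-Pearson intervals, which cover counting error only. SD values are over cells and describe spread from cell to cell, not error between animals.

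The spliceosome removes introns in ordered steps. U1 binds the 5' splice site, the U2AF heterodimer binds the 3' splice site and its polypyrimidine tract, and the U2 particle with its SF3a and SF3b complexes then holds the branch point. A preformed tri-snRNP of U4, U6 and U5 joins next, and U4 leaves before catalysis. In the tri-snRNP, Prpf31 clamps the U4/U6 RNA duplex and bridges it to U5, whose large protein Prpf8 forms the scaffold of the catalytic centre. SF3B1, U2AF1, ZRSR2 and, less often, PRPF8 and PRPF40B are mutated in myelodysplastic syndrome, a disorder of the stem cells studied here, and inherited PRPF31 mutations cause retinitis pigmentosa.

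The libraries were similar in complexity, though prefix 051716 was lower. The median number of genes above 0 per cell was 3248 in prefix 051716, 3679 in prefix 051816 and 3670.5 in the Ski-WT cells, and read depth cannot be recovered from TPM. Ski itself was at 5 TPM or more in 2, 1 and 6 cells in the same order, too few to check the labels. Kit was at that level in 23, 15 and 41 cells, Slamf1 (Cd150) in only 2, 2 and 7, and Cd48 in none of the 94 cells. Ly6a (Sca-1) was at that level in 20 of 27, 7 of 19 and 29 of 48 cells, so the Ski-KO prefixes differed. Of the marker lists for other cell types, at most 4 of the 9 megakaryocyte markers and 2 of the 10 myeloid markers reached 5 TPM in 25% of the cells of any prefix. Myeloid Prtn3 and Lyz2, erythroid Car2 and the NK cell gene Nkg7 did so in every prefix, and the B cell gene Cd79b in prefix 051816. Summed over their lists, B cell and mast cell markers had a median of 0 TPM in each prefix. Other lists did not. In prefixes 051716 and 051816 and in Ski-WT, the erythroid sums had medians of 3081, 2724 and 3566 TPM. Only Car2 of the 10 erythroid genes reached 5 TPM in 25% of the cells of any prefix. In the same order, 6, 5 and 4 of the 10 were at 0 in all cells, so this sum describes few genes. Sums of the stem cell list had medians of 1863, 1901 and 2698 TPM. Megakaryocyte sums had medians of 401, 739 and 977 TPM, and myeloid sums 387, 256 and 519 TPM. Of 11 stem cell genes detected widely enough to compare, 9 were lower in both Ski-KO prefixes, with a median of -0.72. Over all 6240 genes detected that widely, 44.3% were lower in both and the median was -0.22. The part of the marker and stem cell genes in the results on splicing genes was not tested.

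The 10 genes did not share a direction. Prpf31 and Sf3b2 were lower by at least 1 in both Ski-KO prefixes, while Sf3b1 and U2af2 were higher in both. U2af1 was lower by more than 1 in a single prefix. Prpf8, Sf3a1, Sf3a3, Zrsr2 and Prpf40b had differences between -0.38 and 0.04. In all, 5 of the 10 genes were lower in both Ski-KO prefixes, 2 were higher in both and 3 were split between the prefixes. A filter asked for a value above 0 in 25% of Ski-KO cells or 25% of Ski-WT cells, which 9 of these 10 genes passed and Prpf40b did not. Among the 6240 genes that passed it, 44.3% were lower in both prefixes and 18.5% were higher in both. Of the 9 core genes that passed it, 4 were lower in both and 2 higher in both. The share of core genes that were lower is thus near the background. After quantile normalization of the cells the split over all genes was 31.7% lower and 29.8% higher, and adjusted for how many genes a cell had above 0 it was 36.6% and 25.2%. For a difference of at least 1 in both prefixes the background was 5.56% lower and 0.577% higher, and the core genes gave 2 lower and 0 higher. The 2 were Sf3b2 and Prpf31, which was selected on this contrast. The median over the 10 genes was -0.19, and over the 9 that passed the filter it was -0.10, beside -0.22 over all genes that passed. Without Prpf31 but with Prpf40b the median was also -0.10. As the log2 ratio of mean TPM the median over the 10 genes was -0.64, beside -0.05 over all genes that passed the filter. That -0.64 includes Prpf31 (-4.55), selected on this contrast, and Prpf40b (-1.30), which did not pass the filter. It was not computed without them.

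**Figure D1:**
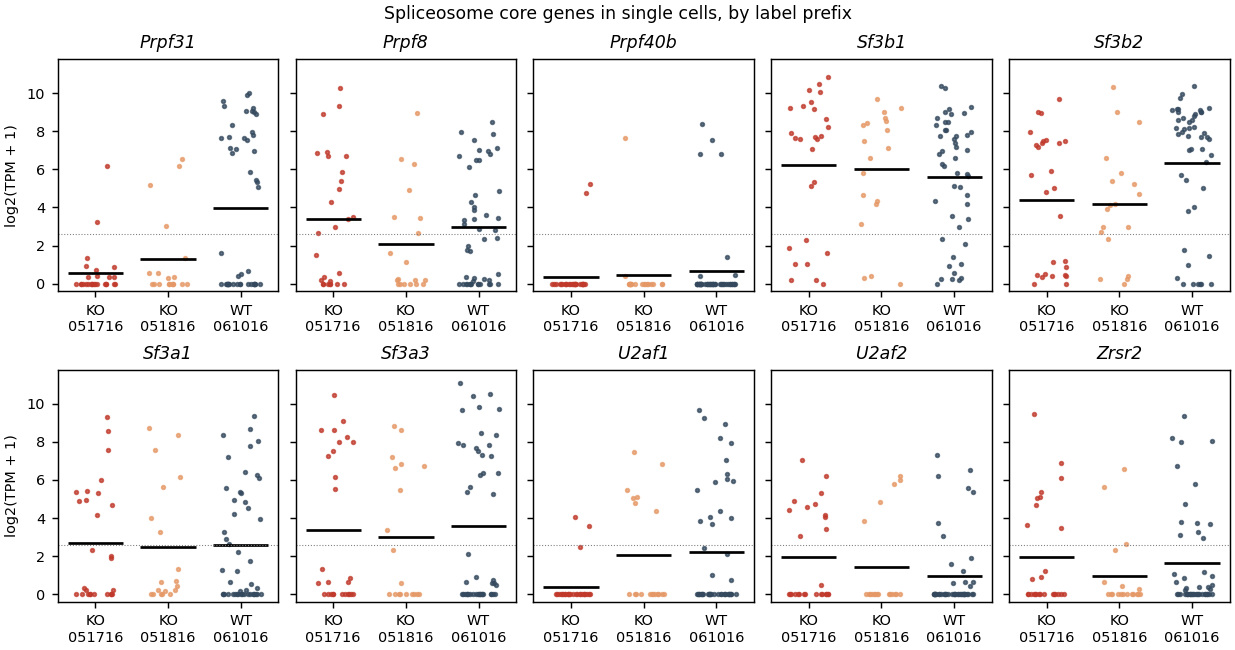
Single-cell levels of the 10 core spliceosome genes as log2(TPM + 1) (vertical axis), by label prefix (horizontal axis, 3 prefixes); each point is a cell, black lines are means over the cells of a prefix, and the dotted line marks 5 TPM. Prpf31 reaches 1023 TPM in the Ski-WT cells and no more than 93.5 TPM in any Ski-KO cell, while Sf3b1 spans a similar range in all prefixes.

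Prpf31 transcript was scarce in the Ski-KO cells of both prefixes. In prefix 051716 its level ran from 0 over a median of 0 to 71.7 TPM, and in prefix 051816 from 0 over a median of 0 to 93.5 TPM. In the Ski-WT cells the highest cell held 1023 TPM. Of the 48 Ski-WT cells, 20 lay above the highest Ski-KO cell, while the remaining Ski-WT cells overlapped with the Ski-KO cells. Mean Prpf31 expression was 0.55 ± 1.32 (SD, n = 27 cells) on the log2 scale in prefix 051716, 1.27 ± 2.23 (SD, n = 19 cells) in prefix 051816 and 3.99 ± 4.04 (SD, n = 48 cells) in the Ski-WT cells. The difference was -3.15, with -3.45 and -2.73 for the prefixes, the third lowest of the 6240 genes by the smaller of both prefix differences. In TPM the means were 3.15, 11.1 and 174, and the pooled Ski-KO mean of 6.45 TPM was 26.9-fold lower than the Ski-WT mean. Without the highest cell of each group, the Ski-KO mean was 4.52 TPM and the Ski-WT mean 156 TPM.

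Both the share of cells with Prpf31 and the level within those cells were lower. At 5 TPM or more it was found in 2 of 27 cells of prefix 051716 (7.41%, interval 0.91% to 24.3%), in 4 of 19 cells of prefix 051816 (21.1%, interval 6.05% to 45.6%) while 24 of the 48 cells labelled Ski-WT held it (50%, interval 35.2% to 64.8%). The interval of prefix 051716 lay below that of the Ski-WT cells, and the interval of prefix 051816 overlapped with it. Both statements cover counting error over cells only. Since Prpf31 was selected on this contrast, they describe the values and test nothing. Among the cells at 5 TPM or more, the median was 54.1 TPM in prefix 051816 and 218 TPM in the Ski-WT cells, and both cells of prefix 051716 were at 8.37 and 71.7 TPM. No Ski-WT cell in that set was under 32.6 TPM. A trace of transcript was still common in the Ski-KO cells, of which 19 of 46 had a value above 0 but 13 of these 19 were under 5 TPM, against 4 of 28 in the Ski-WT cells. Over all cells no Prpf31 value lay between 1.99 and 7.19 TPM, so the limit of 5 TPM fell in a gap. Over the 10 genes, 374 of 940 values were at the limit or above it, 146 were above 0 but under it, and 49 lay between 2.5 and 10 TPM. The nearest values on either side were 4.56 TPM (U2af1) and 5.18 TPM (Sf3a1).

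**Figure D2:**
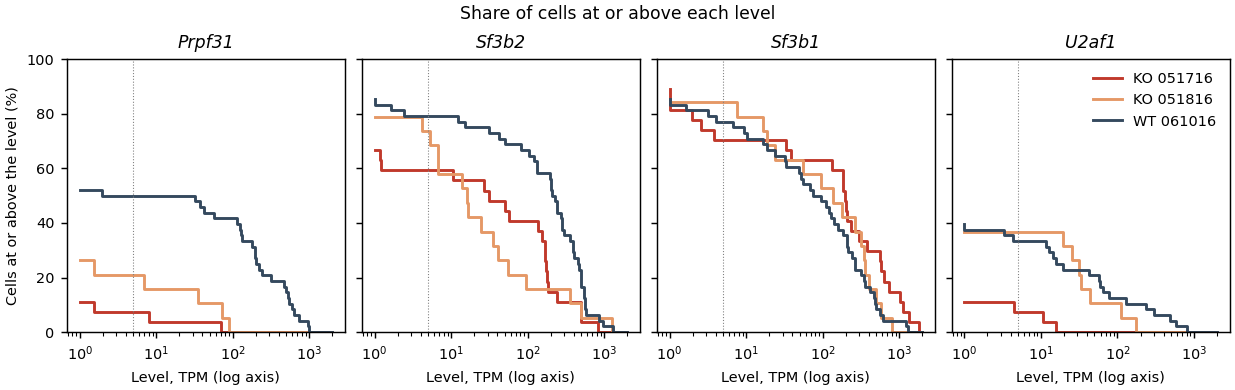
Share of cells (vertical axis, %) at or above each level (horizontal axis, TPM, log scale) for 4 genes and the 3 label prefixes; the dotted line marks 5 TPM. The Prpf31 curve of the Ski-WT cells stays at 50% at 5 TPM and reaches 1023 TPM, while both Ski-KO curves end at 93.5 TPM or below. The Sf3b1 curves stand at 70.4% (prefix 051716), 84.2% (prefix 051816) and 77.1% (Ski-WT) at 5 TPM.

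Prpf31 shares its start region with a neighbour. In the RefSeq annotation of GRCm38.p6 the start of Prpf31 lies on the forward strand of chromosome 7 and that of Tfpt, a gene on the reverse strand, lies 56 bases before it. The bases between both starts are printed because they precede both transcripts. Sf3a1 is arranged the same way, 61 bases from the start of Ccdc157, and its stretch is shown for comparison, with the 250 bases before the start of Sf3b2, the other gene lower by at least 1 in both prefixes. Capitals mark matches to the CCAAT box (CCAAT), the GC box (GGGCGG) or the ETS core (CCGGAAG) on either strand.
Prpf31, chr7:3629930-3629984, forward strand: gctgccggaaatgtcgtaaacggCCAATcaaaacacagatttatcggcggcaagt
Sf3a1, chr11:4160294-4160353, forward strand: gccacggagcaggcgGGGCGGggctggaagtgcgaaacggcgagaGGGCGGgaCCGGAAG
Sf3b2, chr19:5295458-5295707, reverse strand: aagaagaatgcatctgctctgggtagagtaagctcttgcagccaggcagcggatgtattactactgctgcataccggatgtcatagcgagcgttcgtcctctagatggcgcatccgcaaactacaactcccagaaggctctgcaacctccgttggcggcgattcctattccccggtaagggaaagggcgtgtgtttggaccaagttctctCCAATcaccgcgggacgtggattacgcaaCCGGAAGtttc

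Of the 10 genes, 9 were matched by symbol in this table of starts, and U2af2 was not. A start on the opposite strand within 100 bases upstream was present for 3 of these 9 genes (Prpf31, Sf3a1 and Zrsr2) and for 4.43% of the 27025 genes of the table. In the 250 bases before the start, the CCAAT box was present in Prpf31, Prpf8, Prpf40b, Sf3b2 and U2af1 and in 34.2% of all genes. The GC box was in Prpf40b, Sf3b1, Sf3a1, U2af1 and Zrsr2 and in 32.7% of all genes, and the ETS core in Sf3b2, Sf3a1 and Sf3a3 and in 7.14% of all genes. These are letter matches only, and binding was not measured.

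The genes beside Prpf31 did not show its pattern at a level that could be compared. Tfpt, which encodes a subunit of the INO80 chromatin remodelling complex, was scarce everywhere, at 5 TPM or more in 1, 1 and 5 cells of prefixes 051716 and 051816 and of Ski-WT. Its difference was -0.21. Cnot3, the nearest protein-coding gene on the other side and a subunit of the CCR4-NOT deadenylase, was higher, with a difference of 0.57 and 6 Ski-KO cells against 1 Ski-WT cell at 5 TPM or more. Ndufa3, a subunit of respiratory complex I, lies 2 protein-coding genes away and was abundant, with a difference of 0.58. Rps9, a ribosomal protein gene 6 protein-coding genes away, had -0.15, and Tsen34, a tRNA splicing endonuclease subunit, had -0.63 with 1 Ski-KO and 7 Ski-WT cells at 5 TPM or more. Leng1, Mboat7, Tmc4, Leng8 and Ttyh1 had differences between 0.02 and 0.27. Ttyh1 and Leng8 lie farther off, 14 and 15 protein-coding genes from Prpf31. Of the 10 neighbours in the table, 4 passed the filter (Ndufa3, Cnot3, Rps9 and the more distant Leng8). Gm15927, which is not in the table, overlaps Prpf31 in RefSeq. Whether the counting used strand is not given in the sources used here, so reads from both cannot be told apart.

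Within the U4/U6 particle the low level was not general. Besides Prpf31, 4 of the other 5 listed genes passed the filter. Prpf3, which binds the U4/U6 duplex beside Prpf4, was lower in both prefixes (-0.95, with -0.72 and -1.29). Only 4 Ski-KO cells held it at 5 TPM or more, against 10 Ski-WT cells, and its mean was 10.1 TPM against 54.3 TPM. Prpf4, its direct partner, had -0.12 and was at that level in 9 and 10 cells. Nhp2l1, now named Snu13, encodes the protein that Prpf31 needs to recognise the U4 stem, and it was abundant in both genotypes. It was higher in both prefixes (0.27), with 32 Ski-KO and 33 Ski-WT cells at 5 TPM or more and expressing-cell medians of 353 and 346 TPM. Ppih, a cyclophilin of the same particle, had 0.17, with 0.56 in prefix 051716 and -0.39 in prefix 051816. Sart3, a recycling factor below the filter, had 0.26. Thus among the genes of this particle Prpf31 and Prpf3 were lower in both prefixes and Nhp2l1 was not.

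Prpf8, the U5 scaffold, did not differ alike in the Ski-KO prefixes. Its level ran from 0 over a median of 2.97 to 10.3 on the log2 scale in prefix 051716, from 0 over 0.26 to 8.98 in prefix 051816, and from 0 over 2.61 to 8.48 in the Ski-WT cells. The ranges overlapped fully. The difference was -0.10, with 0.43 in prefix 051716 and -0.85 in prefix 051816, and its sign turned under 6 of 12 alternatives, among them the log2 ratio of mean TPM (0.91). The share at 5 TPM or more was 55.6% (interval 35.3% to 74.5%), 36.8% (16.3% to 61.6%) and 50% (35.2% to 64.8%). Its highest mean, 111 TPM in prefix 051716, rested in part on a cell at 1235 TPM and was 67.4 TPM without it.

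The other U5 genes were mixed. Of 7 U5 genes that passed the filter, both prefixes were lower for 4 and higher for 1. Their median was -0.22, the same as over all genes, of which 44.3% were lower in both and 18.5% higher. Txnl4a, a small U5 protein, had -0.92, with 27 Ski-KO and 39 Ski-WT cells at 5 TPM or more. In the cells that held it the median was not lower, at 301 TPM against 179 TPM. Eftud2, the U5 GTPase, had -0.84 and Snrnp200, the helicase that unwinds U4/U6, had -0.35. Prpf6, which joins U5 to U4/U6, had 0.25, with 0.52 and -0.15 in the prefixes. Snrnp40 was higher in both (0.61). Among factors that join the tri-snRNP, Snrnp27 was lower by at least 1 in both prefixes (-2.05, with -1.86 and -2.32), with 18 Ski-KO and 33 Ski-WT cells at 5 TPM or more. Sart1 (0.55) and Prpf4b (0.26), a kinase of tri-snRNP assembly, were higher in both.

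Sf3b2, an SF3b subunit that contacts the pre-mRNA near the branch point, was the other core gene with a large difference. Prefix 051716 ran from 0 over a median of 5.04 to 9.71 on the log2 scale, prefix 051816 from 0 over 4.13 to 10.3, and the Ski-WT cells from 0 over 7.82 to 10.4. The ranges overlapped fully, but both Ski-KO medians were below the Ski-WT median. Means were 4.38 ± 3.50 (SD, n = 27 cells), 4.20 ± 3.01 (SD, n = 19 cells) and 6.36 ± 3.36 (SD, n = 48 cells), and the difference was -2.05, with -1.98 and -2.16 in the prefixes. In TPM the Ski-KO mean was 130 against 282, a 2.17-fold difference.

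Unlike Prpf31, Sf3b2 remained detected in most Ski-KO cells. It was above 0 in 93.5% of Ski-KO and 87.5% of Ski-WT cells. At 5 TPM or more the shares were 59.3% (interval 38.8% to 77.6%) in prefix 051716, 73.7% (48.8% to 90.9%) in prefix 051816 and 79.2% (65.01% to 89.5%) in the Ski-WT cells, with overlapping intervals. The level among those cells was lower, with medians of 167 TPM in prefix 051716, 30.8 TPM in prefix 051816 and 291 TPM in the Ski-WT cells. At 100 TPM or more there were 14 of 46 Ski-KO cells and 32 of 48 Ski-WT cells.

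Sf3b1, the largest SF3b subunit and the splicing gene most often mutated in myelodysplastic syndrome, was not lower. It ran from 0 over a median of 7.65 to 10.9 in prefix 051716, from 0 over 7.14 to 9.69 in prefix 051816 and from 0 over 6.43 to 10.4 in the Ski-WT cells, on the log2 scale. The groups overlapped fully. The difference was 0.52, with 0.60 and 0.39 in the prefixes, and stayed above 0 under all 12 alternatives. The shares at 5 TPM or more were 70.4% (interval 49.8% to 86.2%), 84.2% (60.4% to 96.6%) and 77.1% (62.7% to 87.97%). Among those cells the medians were 299, 226 and 164 TPM. Thus the pair of SF3b subunits had differences of opposite sign in the same cells, and 24 Ski-KO and 30 Ski-WT cells held both at 5 TPM or more.

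The remaining SF3b genes were mixed. Of 9 that passed the filter, Sf3b2 and Sf3b1 included, 3 were lower in both prefixes and 4 higher, with a median of 0.10. Over all genes 44.3% were lower and 18.5% higher, with a median of -0.22. Phf5a, a small SF3b subunit at the branch site pocket, had -1.10 with 12 Ski-KO and 21 Ski-WT cells at 5 TPM or more. Sf3b3 had -0.65. Sf3b4 (0.23), and the helicases Ddx46 (0.40) and Ddx42 (0.41), were higher in both. Sf3b6 had -0.02 and Sf3b5 had 0.10 with prefixes of opposite sign.

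The SF3a genes were found in similar shares of cells. Sf3a1, a scaffold of SF3a, had a difference of 0.04, with 0.13 and -0.09 in the prefixes, and was at 5 TPM or more in 40.7% (interval 22.4% to 61.2%), 36.8% (16.3% to 61.6%) and 41.7% (27.6% to 56.8%) of cells. Its expressing-cell medians were 40.8, 70.1 and 43.3 TPM. Sf3a3 had -0.38, with -0.21 and -0.62, and its sign turned once the number of genes above 0 was a covariate (0.05). Its mean was 117 TPM in the Ski-KO cells against 209 TPM, a log2 ratio of -0.83. Its shares were 40.7% (interval 22.4% to 61.2%), 42.1% (20.3% to 66.5%) and 43.8% (29.5% to 58.8%). In the cells with Sf3a3 the medians were 253, 108 and 226 TPM. Sf3a2 was below the filter. Snrpb2 (1.24) and Snrpa1 (0.81), proteins of the U2 particle itself, were higher in both prefixes, although for Snrpa1 the value in prefix 051716 was only 0.0045.

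**Figure D3:**
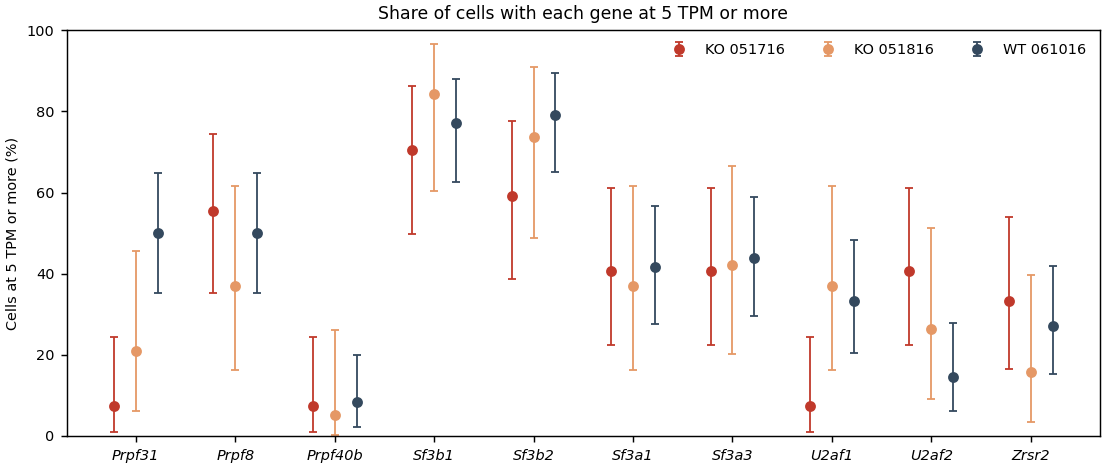
Share of cells with each of the 10 genes at 5 TPM or more (vertical axis, %) for the 3 label prefixes; points are shares and bars are exact 95% binomial intervals for counting error. Prpf31 stands at 7.41%, 21.1% and 50%, U2af1 is at 7.41% in prefix 051716 alone, and U2af2 is highest in prefix 051716 at 40.7%.

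The subunits of the U2AF heterodimer went in opposite directions, and the Ski-KO prefixes disagreed for the smaller one. U2af1, which reads the AG at the 3' splice site, ran from 0 over a median of 0 to 4.06 on the log2 scale in prefix 051716. It reached 7.48 in prefix 051816 and 9.70 in the Ski-WT cells, with medians of 0 in both. It was at 5 TPM or more in 2 of 27 cells of prefix 051716 (7.41%, interval 0.91% to 24.3%), 7 of 19 of prefix 051816 (36.8%, interval 16.3% to 61.6%) while 16 of the 48 cells labelled Ski-WT held it (33.3%, interval 20.4% to 48.4%). By share, prefix 051716 was low and prefix 051816 was not. By level both were lower, with means of 1.15, 23.5 and 62.1 TPM and expressing-cell medians of 13.3, 33.7 and 63.9 TPM in the same order. The differences were -1.85 and -0.17, and -1.16 pooled. Prefix 051716 is also the one with the fewest genes above 0, and the part of this in the U2af1 value was not tested. With the number of genes above 0 as a covariate, U2af1 kept a value below 0, as it did under all 12 alternatives.

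U2af2, which binds the polypyrimidine tract, was higher in the Ski-KO cells. It reached 131.8 TPM in prefix 051716, 72.8 TPM in prefix 051816 and 156 TPM in the Ski-WT cells, and the median was 0 in each. The difference was 0.79, with 1.01 and 0.47. At 5 TPM or more it was found in 11 of 27 cells (40.7%, interval 22.4% to 61.2%), 5 of 19 cells (26.3%, interval 9.15% to 51.2%) while 7 of the 48 cells labelled Ski-WT held it (14.6%, interval 6.07% to 27.8%). The intervals overlapped. Its share was higher by at least 10 points in both prefixes, as for 2.1% of all genes, and Prpf31 was the only one of the 10 genes with a share lower by at least 10 points in both, as for 11.6% of all genes. The level within those cells did not differ alike in both prefixes, with medians of 22.6, 55.3 and 46.1 TPM. With that median over expressing cells the sign turned, to -0.75. Cells with both U2AF subunits at 5 TPM or more were few, 4 Ski-KO and 4 Ski-WT, and 25 and 29 cells held neither at that level.

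Zrsr2, which recognises the 3' splice site of minor introns and lies on the X chromosome, had a difference of -0.08. Prefix 051716 had 0.33 and prefix 051816 had -0.65. It was at 5 TPM or more in 33.3% (interval 16.5% to 53.96%), 15.8% (3.38% to 39.6%) and 27.1% (15.3% to 41.8%) of cells. The mean of prefix 051716, 39.03 TPM, fell to 13.2 TPM without its highest cell at 710 TPM. Zrsr1, its near-identical relative, reached 5 TPM in 1 Ski-KO cell and 2 Ski-WT cells, and how reads were split between both genes is not given in the sources used here. Ap1s2, which overlaps Zrsr2 in RefSeq, is also in the table. Among the other genes of minor introns Rnpc3 (-0.61) and Zmat5 (-0.53) were lower in both prefixes and Snrnp48 (0.42) was higher in both.

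Other factors of 3' splice site recognition included 1 with a large difference. U2af1l4, a relative of U2af1, was lower in both prefixes (-1.42, with -1.18 and -1.77), with 6 Ski-KO and 15 Ski-WT cells at the limit of 5 TPM or above it. Sf1, the branch point binding protein, had 0.07 and Puf60 had -0.06, both with prefixes of opposite sign. Ddx39b, a helicase that helps U2 to bind, had -0.64. Of 8 genes of this list that passed the filter, both prefixes were lower for 3 and higher for 1. The shares over all genes were 44.3% and 18.5%.

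Prpf40b, which links U1 to the branch point factors, was too scarce to compare. It was at 5 TPM or more in 2 of 27, 1 of 19 and 4 of 48 cells, or 7.41% (interval 0.91% to 24.3%), 5.26% (0.13% to 26.03%) and 8.33% (2.32% to 19.98%). The difference was -0.27. The mean of prefix 051816, 10.6 TPM, rested on a single cell at 200.6 TPM. Of 9 U1 genes that passed the filter, 2 were lower and 3 higher in both prefixes, beside 44.3% and 18.5% of all genes. Snrpa, the U1 A protein, had -1.38, with 15 Ski-KO and 26 Ski-WT cells at 5 TPM or more, Snrpc, the U1 C protein, had -0.34, and Snrnp70, the U1 70K protein, had 0.44. Luc7l2, which is mutated in myelodysplastic syndrome, was at that level in 44 of 46 and 48 of 48 cells and had 0.19.

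**Figure D4:**
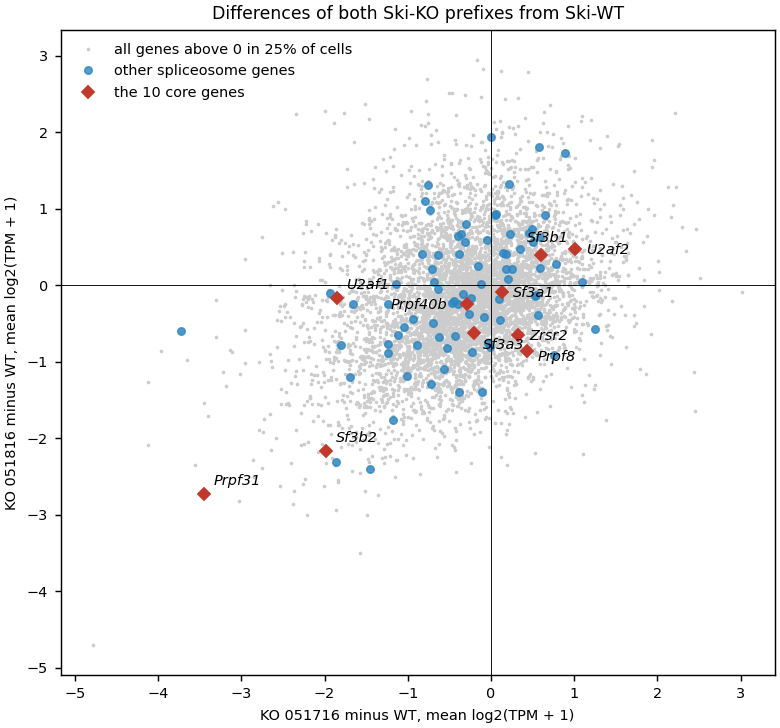
Mean log2(TPM + 1) minus that of the Ski-WT cells, for prefix 051716 on the horizontal and prefix 051816 on the vertical axis; grey points are the 6240 genes that passed the filter, blue points the other spliceosome genes that passed it and red diamonds the 10 core genes. Prpf31 (-3.45 and -2.73) and Sf3b2 (-1.98 and -2.16) lie at the lower left and U2af2 and Sf3b1 at the upper right; both axes share the same Ski-WT cells.

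Lists of proteins across the whole spliceosome held 98 genes, all in the table, and 88 passed the filter. Of these, 39 were lower in both prefixes, 23 were higher in both and 26 were split, with a median of -0.17 beside -0.22 over all genes. The shares over all genes were 44.3% lower and 18.5% higher. Without the 10 core genes 79 passed, of which 35 were lower and 21 higher, with a median of -0.21. Of these 79, 5 were lower by at least 1 in both prefixes and 0 were higher by that much. The shares over all genes were 5.56% and 0.577%. Of all 88, 7 were lower by at least 1 in both prefixes, counting Prpf31, which was selected on this contrast, and none was higher by that much. These were Prpf31, Sf3b2, Snrnp27, U2af1l4, Cwc15, Plrg1 and Aqr. The last 3 belong to the PRP19 list, whose proteins join at activation, and 7 of its 14 genes were lower and 1 was higher in both prefixes. Cwc15 had -1.84, with 15 Ski-KO and 29 Ski-WT cells at 5 TPM or more, and Plrg1 had -1.49, with 5 and 14. Aqr, an intron-binding helicase, had -1.08, and Snw1, which had the lowest pooled value of the list (-2.44), had -3.73 in prefix 051716 and -0.60 in prefix 051816. Crnkl1 was the gene of this list that was higher in both (0.53).

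The rings that hold the small nuclear RNAs were mixed as well. Of 7 Sm genes 4 were lower in both prefixes and 2 higher, among them Snrpg (-1.05), Snrpf (-0.85) and Snrpd3 (0.60). Beside this count and those that follow, the shares over all genes were 44.3% lower and 18.5% higher. Snrpd2 had 0.15. For Snrpf mean TPM itself was higher in the Ski-KO cells, with a log2 ratio of 0.36, as it was for Lsm3 (0.44), Txnl4a (0.27), Eftud2 (0.20), Slu7 (0.71), Snrpc (0.32) and Ddx41 (0.014). Of 7 LSm genes 4 were lower and 3 higher, with Lsm6 (-0.83) and Lsm3 (-0.73) on the low side and Lsm5 (1.08) and Lsm4 (0.76) on the high side. Among remodelling helicases and second-step factors, Slu7 had -0.80 and Ddx41 -0.31, while Cdc40 had 0.67 and Dhx15 0.66. The box C/D particles, which modify ribosomal RNA and share Nhp2l1 with U4, hold relatives of Prpf31 with its Nop domain, Nop56 and Nop58. Nop58 had 0.39, with -0.24 and 1.30 in the prefixes. Nop56 was lower by at least 1 in both (-1.99, with -2.63 and -1.06), and Fbl, the methylase, was higher by at least 1 in both (1.28). Chaperones of U5 and box C/D assembly had a median of -0.01, with Aar2 at -0.41, Ecd at 0.70 and Ruvbl2 at 0.60. Of 11 measured splicing genes mutated in myelodysplastic syndrome 10 passed the filter, of which 2 were lower in both prefixes and 3 higher. Srsf2, the most abundant of them, had 0.01, with 0.56 in prefix 051716 and -0.77 in prefix 051816.

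**Figure D5:**
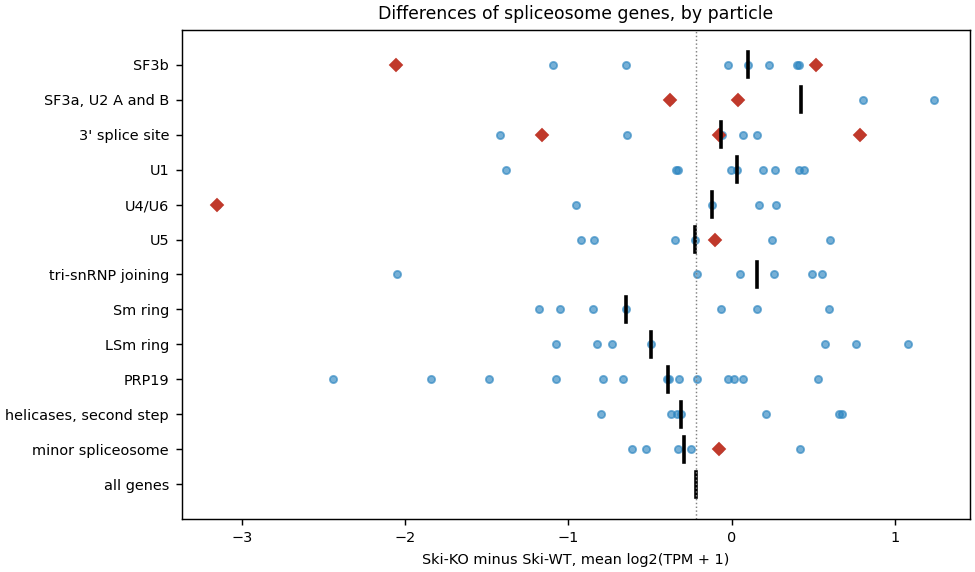
Difference between Ski-KO and Ski-WT in mean log2(TPM + 1) (horizontal axis) for the genes of 12 spliceosome lists that passed the filter (vertical axis); blue points are genes, red diamonds the core genes, short black bars list medians and the dotted line the median over all genes, -0.22. List medians lie between -0.65 for the Sm ring and 0.42 for the SF3a list, and Prpf31 (-3.15) lies apart from the other U4/U6 genes.

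Each cell held only part of the set. The median number of core genes at 5 TPM or more was 4 of 10 in each of the 3 prefixes, and single cells held between 1 and 7. Summed over the 10 genes, the median was 687 TPM in prefix 051716, 455 TPM in prefix 051816 and 1005 TPM in the Ski-WT cells, and without Prpf31 it was 687, 433 and 858 TPM. The Ski-KO cells with both tri-snRNP genes, Prpf31 and Prpf8, at 5 TPM or more numbered 4, against 9 Ski-WT cells. Across the 48 Ski-WT cells the 45 pairs of core genes had Pearson correlations between -0.35 and 0.35 with a median of 0.00. Prpf31 had -0.20 with Prpf8 and 0.10 with Sf3b2, and 0.16 with the number of genes above 0. Cells of a prefix share library preparation, most values are 0 or near it, and correlations of this size are no finding.

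By mean level per length in the Ski-WT cells the order was Sf3b2 (282 TPM), Sf3a3 (209 TPM), Sf3b1 (199 TPM), Prpf31 (174 TPM), U2af1 (62.1 TPM), Sf3a1 (52.5 TPM), Prpf8 (42.7 TPM), Zrsr2 (36.02 TPM), Prpf40b (15.6 TPM) and U2af2 (9.05 TPM). Neighbours in this order differed by less than their spread over cells. In the Ski-KO cells Sf3b1 came first, with 314 TPM, and Prpf31 was ninth of the 10, above Prpf40b at 5.74 TPM.

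Other genes had shares of cells like those of Prpf31. By the largest gap over the 3 prefixes, the nearest of the genes that passed the filter were Lta4h, Tmem106c, Gstz1, Snx14 and Polr2i, with gaps of 7.41 to 10.4 percentage points. Lta4h, which encodes a leukotriene hydrolase, was at 5 TPM or more in 4 of 27, 4 of 19 and 21 of 48 cells, and its difference was -2.07. Gstz1, a glutathione transferase gene, had 4, 3 and 20 cells, and Polr2i, an RNA polymerase II subunit gene, had 4, 3 and 19. Across the 48 Ski-WT cells, the highest Spearman correlations with Prpf31 among 3625 genes were those of Parp9 (0.49), Rbm15 (0.48) and Paxbp1 (0.46). They were picked as the highest of many values over sparse data, and whether they exceed those of unrelated genes was not tested. Parp9 (-1.11) and Paxbp1 (-1.90) were lower in both Ski-KO prefixes, and Rbm15 (0.27) was higher in both. Of all genes that passed the filter, 44.3% were lower in both and 18.5% higher.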

How the data were processed

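Per the labels' protocols, a Fluidigm C1 system separated the cells, the SMARTer kit made cDNA and the Nextera XT kit made libraries. The submitters' processing notes list Bowtie2, RSEM and mm9, with neither versions nor the step each served. The deposited values are log2 of TPM + 1, which was read from the values: back-transformed, each cell summed to between 997625 and 999995 TPM. TPM keeps no read depth, so no counting error per gene can be given. All 94 cells were used, doublets were not searched for and cells were not clustered. Pairs of cells reached a Pearson correlation of at most 0.53.

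Means, shares at 5 TPM or more and medians over those cells were computed by prefix. The software was pandas 2.3.3 with numpy 2.4.6 and scipy 1.17.1 under Python 3.11.15, and figures used matplotlib 3.10.9. The script was tested on simulated data. The members and gene lists were chosen with earlier results of these data known. Named genes are the 10 members, up to 2 lower and 2 higher genes of each list by the smaller of both prefix differences, the neighbours of Prpf31 and the genes most like it. Other named genes of these lists (Aqr, Snw1, Prpf4, Srsf2 and others) were added after their values were seen. Promoter sequences are those of RefSeq, GRCm38.p6, and starts were matched by symbol.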

Additional observations from a re-analysis of the deposited data

How the results depend on the processing

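Each difference was recomputed under 12 alternatives. The value for Prpf31 (-3.15) stayed below 0 in all of them. It was -4.00 with a pseudocount of 0.1 TPM, -2.01 with 10 TPM, -4.55 as the log2 ratio of mean TPM and -2.08 as the median over cells at 5 TPM or more. The share of cells with Prpf31 differed by -36.96 points at 5 TPM, by -17.03 points above 0 TPM and by -34.7 to -41.3 points at 1, 10 and 50 TPM. The number of core genes lower in both prefixes was 5, beside 44.3% of all genes. With the number of genes above 0 as a covariate it was 4, beside 36.6%. After quantile normalization, which moves the median over all genes from -0.22 to 0.00, it was 3, beside 31.7%. Counted in a single prefix, 5 core genes were lower in prefix 051716 and 8 in prefix 051816. The share over all genes was not computed for these single-prefix counts. The median over the 10 genes, with the selected Prpf31 and the unfiltered Prpf40b included, was -0.64 as the log2 ratio of mean TPM. Over all genes that passed the filter it was -0.05. The sign turned for Prpf8 under 6 alternatives, Sf3a1 under 3, Zrsr2 under 2, and Sf3a3 and U2af2 under 1 each. Except where fewer genes or cells enter, the cause was not tested. Without a filter on low values 2.66% of all genes were lower by at least 1 in both prefixes, in place of 5.56%. The count of lower genes has no value for medians over expressing cells, since prefix 051716 held 2 cells with Prpf31. No paired analysis was possible because the numbers in the titles count cells and no test was made. With 1 sample a genotype, no replicate could be left out.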
